A study of Mus musculus with 2 samples.

Results

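The cells described here are labelled as mural cells of the mouse heart, that is pericytes and vascular smooth muscle cells. They were picked from 2 Drop-seq libraries by the UMIs (unique molecular identifiers, 1 per captured mRNA molecule) of 6 genes, and whether every member is a mural cell was not tested. A cell barcode was a member when at most 25% of its UMIs came from mitochondrially encoded genes, when Rgs5, Vtn, Kcnj8, Abcc9, Notch3 and Myh11 together had at least 6 UMIs with at least 2 of these genes seen, and when C1qa, C1qb and C1qc together had at most 2 UMIs. This rule found 415 members among the 14744 barcodes within the mitochondrial limit, of 14892 in the tables. Since measured values of these 6 genes chose the cells, their levels, and those of genes that go with them, are a description.

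The MI library came from 1 heart, taken 14 days after the left anterior descending artery was tied off to cause myocardial infarction (MI), and held 169 members among 8441 barcodes. The sham library came from 4 pooled hearts, taken 14 days after the same operation without tightening of the suture, and held 246 members among 6303 barcodes. All mice were male C57BL6/J wild type animals of 8 to 10 weeks, so strain, sex and age were shared. The labels describe perfusion, fixation and embedding of the hearts but not how cells were dissociated, and a pool of 4 hearts in the sham library hides the spread between animals. Each group was 1 library, so no difference between MI and sham had a replicate check and none was tested. All intervals below are 95% intervals and cover counting error only.

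Pericytes lie in the basement membrane of capillaries, wrapped around the endothelial tube, and vascular smooth muscle cells form the contractile coat of arterioles and arteries. Endothelial cells recruit both through platelet-derived growth factor B, which acts on the receptor Pdgfrb of mural cells, and Jagged and Delta ligands act on their Notch3. Kcnj8 and Abcc9 encode the pore and the sulphonylurea subunit of the vascular ATP-sensitive potassium channel, Rgs5 a regulator of G protein signalling, Vtn the adhesive protein vitronectin and Myh11 the smooth muscle myosin heavy chain. In the heart, pericytes are an abundant cell type next to the capillary endothelium, and after injury mural cells can change their contractile and matrix genes.

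The MI library held 33275336 UMIs and the sham library 11307405, and the median over kept barcodes was 2495 UMIs in MI and 1424 in sham. The libraries shared 5 barcodes, none of them a member. Among members, 16 in MI and 35 in sham had a barcode ending in N, and scrublet, a doublet caller, marked 1 and 10. The members were deeper in MI, with a median of 6780 UMIs, than in sham, with 2256 UMIs. The 6 genes gave a median of 22 UMIs per MI member and 26 per sham member. Their median share was 0.339% of an MI member's UMIs and 1.25% of a sham member's, and the lowest share 0.0227% and 0.088%. Some members passed mainly through Myh11. For example, 1 MI member of 22873 UMIs had 57 UMIs of Myh11 and 0 of Rgs5, and 1 sham member of 4833 UMIs had 41 and 0. Members with under 6 UMIs of the other rule genes, which passed only with their Myh11 UMIs, were a larger part of the MI members than of the sham members. What kind of cell such members are was not tested. At the threshold, 14 MI and 5 sham members had 6 of these UMIs, and 11 MI and 6 sham barcodes lay just outside with 5. A further 26 MI and 71 sham barcodes reached 6 UMIs with 1 gene seen, and 9 MI and 16 sham barcodes were left out by the C1q limit.

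Some genes that the rule did not use were also higher in the members than in the other barcodes of both libraries. They were ranked on these same data, so their levels are a description. Gene positions are 1-based. Levels are given as CPM, the usual counts per 1000000 UMIs, from the UMIs summed over the cells of a group. Higd1b, a hypoxia-inducible domain protein known from pericytes, had 139.6 CPM in members and 0.822 CPM in other barcodes of the MI library, and 267 CPM in members and 4.76 CPM in other barcodes of the sham library. The odorant receptor gene Olfr558 (7:102702215-102712064, plus strand, of GRCm38 in GENCODE vM21) was at 151 CPM in members and 1.2 CPM elsewhere in MI, and at 226 CPM in members and 3.33 CPM elsewhere in sham. Olfr78, another odorant receptor gene on that chromosome (7:102738511-102759471, minus strand), was at 123 CPM in members and 1.55 CPM elsewhere in MI, and at 40.4 CPM in members and 0.0952 CPM elsewhere in sham. The Kcnj8 gene (6:142564837-142571614, minus strand) lies beside Abcc9 (6:142587862-142702315, minus strand), Rgs5 is at 1:169655501-169695813 and Myh11 at 16:14194535-14291372. The other genes that led in both libraries were Casq2, a calcium-binding protein of the sarcoplasmic reticulum, Rerg, Lin7a, Ephx3, Atp1b2, Itga7, an integrin that binds laminin, Cox4i2, a hypoxia-linked cytochrome oxidase subunit, the carboxypeptidase gene Cpm, Slc16a12, Mylk, the myosin light chain kinase, Cspg4, the NG2 proteoglycan of pericytes, and Egflam.

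Of the 5 label markers, Rgs5, Vtn, Kcnj8, Myh11 and Notch3, all were higher than in the other cell types of the same library; the rule chose the members by the sum of these genes and Abcc9. Endothelial, fibroblast and lymphocyte barcodes were chosen by their own marker genes for this comparison. Members with no UMI of the endothelial genes Cdh5 (VE-cadherin) and Pecam1 had 2577 CPM of Rgs5 in MI and 14388 CPM in sham. Endothelial barcodes had 15.8 CPM in MI and 404 CPM in sham, fibroblast barcodes 11.7 and 42.1 CPM, and lymphocyte barcodes, taken as the background level of a cell type that should lack the gene, 6.55 and 69.4 CPM from 1 and 3 UMIs. Vtn, Kcnj8, Abcc9, Notch3 and Myh11 had no UMI in the lymphocyte barcodes of either library, 86 in MI and 30 in sham.

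**Figure D1:**
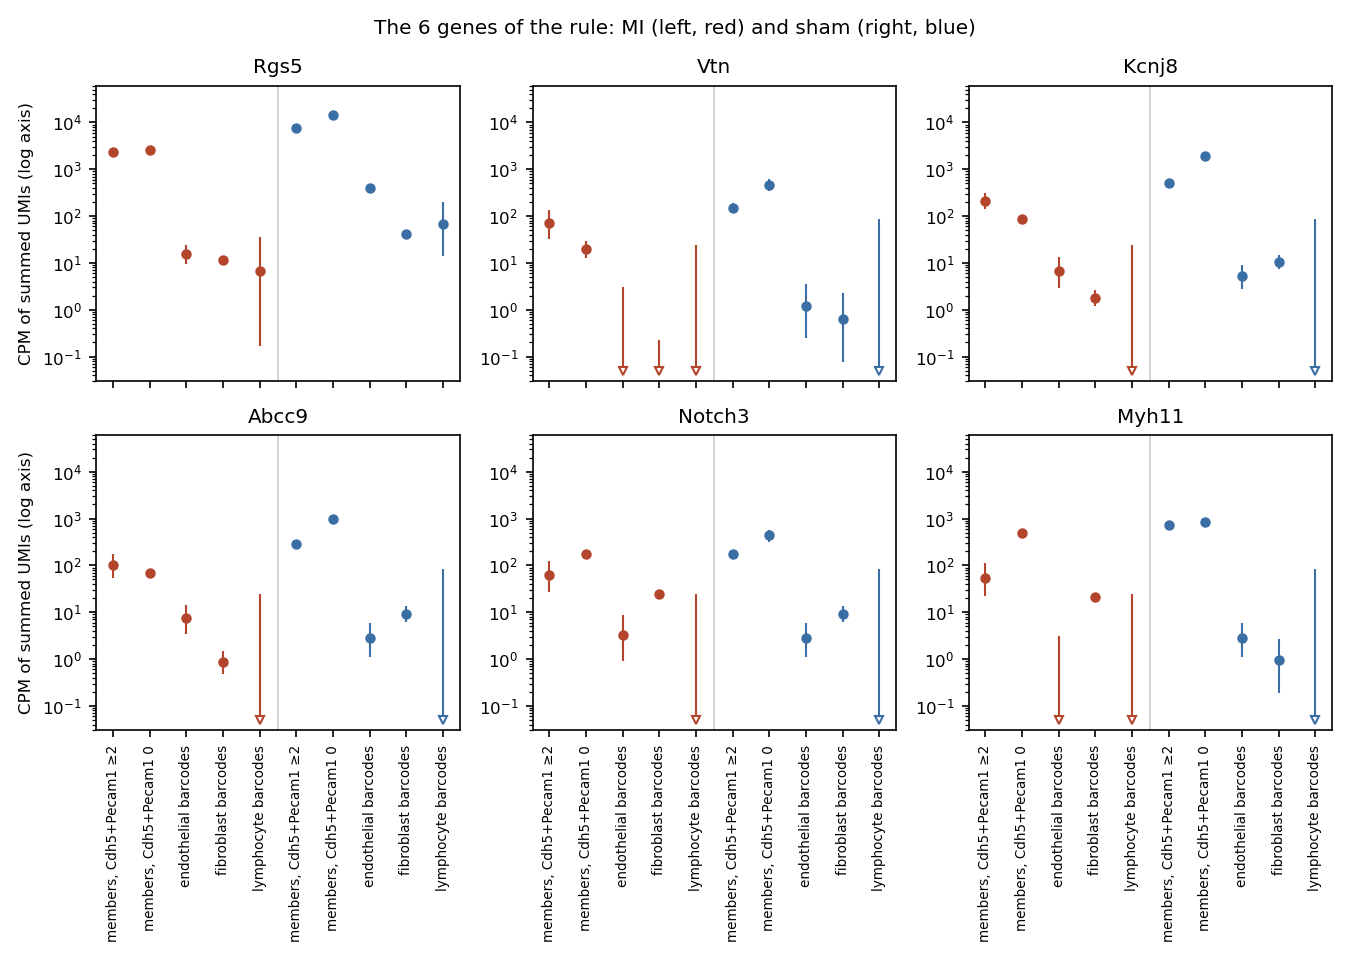
CPM of the 6 genes of the rule on a log axis in 5 kinds of barcode, MI in red on the left and sham in blue on the right of each panel; points are summed UMIs, lines exact Poisson 95% intervals, and open triangles at the bottom stand for 0 UMIs. Rgs5 of members without endothelial UMIs lies at 2577 CPM in MI and 14388 CPM in sham, above the 3 other cell types of its own library.

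Stretches of 250 bases before the start of Acta2, Cnn1, Rgs5 and Kcnj8 are shown because smooth muscle actin and calponin genes went with Myh11 while Kcnj8 did not (below), and because the CArG box, the site read by serum response factor, is the textbook element of contractile gene promoters. They are from RefSeq on GRCm38.p6, the mm10 build, written 5′ to 3′ on the gene's strand, with matches to a CArG-like box (the CArG box with up to 1 G or C allowed among its 6 central bases, searched on both strands, and containing the strict box) in capitals. Acta2 (alpha smooth muscle actin; chr19:34255374-34255623, minus strand) held 2 matches, with their first bases 84 and 34 bases before the start. Cnn1 (calponin; chr9:22099003-22099252, plus strand), Rgs5 (chr1:169655251-169655500, plus strand) and Kcnj8 (chr6:142571615-142571864, minus strand) held none.
Acta2: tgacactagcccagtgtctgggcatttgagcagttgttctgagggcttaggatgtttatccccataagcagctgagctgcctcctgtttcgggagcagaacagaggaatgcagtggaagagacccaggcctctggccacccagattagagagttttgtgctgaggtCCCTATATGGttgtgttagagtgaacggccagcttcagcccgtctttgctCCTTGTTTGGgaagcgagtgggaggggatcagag
Cnn1: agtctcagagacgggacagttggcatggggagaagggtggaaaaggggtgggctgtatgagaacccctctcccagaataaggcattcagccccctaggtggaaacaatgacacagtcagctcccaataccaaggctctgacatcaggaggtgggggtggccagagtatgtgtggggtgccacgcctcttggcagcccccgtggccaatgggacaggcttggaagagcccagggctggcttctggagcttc
Rgs5: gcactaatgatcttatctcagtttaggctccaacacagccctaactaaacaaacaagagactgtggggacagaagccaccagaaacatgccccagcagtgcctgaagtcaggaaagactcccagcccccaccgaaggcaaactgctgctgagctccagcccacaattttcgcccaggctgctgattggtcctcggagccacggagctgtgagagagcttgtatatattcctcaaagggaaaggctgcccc
Kcnj8: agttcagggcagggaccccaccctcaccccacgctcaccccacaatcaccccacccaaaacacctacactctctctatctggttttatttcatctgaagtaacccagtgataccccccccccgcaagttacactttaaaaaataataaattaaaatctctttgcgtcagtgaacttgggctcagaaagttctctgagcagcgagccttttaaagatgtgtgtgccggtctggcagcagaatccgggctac
The CArG-like box was in 8.59% of 32851 promoter stretches of the same length, and the strict CArG box in 1.47%. Counted per gene, the CArG-like box was in 9.78% of 27025 genes. Of 28 contractile genes, 25 had a stretch in the table and 6 held the box (24%: Acta2, Ldb3, Myl6, Myl9, Pdlim3 and Synm). Of 23 pericyte genes, 15 had a stretch and 2 held it (13.3%: Ggt1 and Tbx18). A match is a description of letters, not a bound site.

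Mural members were 2.00% of kept MI barcodes (1.71% to 2.32%) and 3.90% of kept sham barcodes (3.44% to 4.41%), a log2 ratio of -0.96 (-1.25 to -0.67). This share depends on depth: with each barcode thinned to 1000 UMIs before the rule, 39 of 7723 MI and 144 of 4839 sham barcodes were members, a log2 ratio of -2.56. With at most 10% mitochondrial UMIs it was -0.64. A share is relative to the other cells captured, so fewer mural cells and more of other cells cannot be told apart.

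The members split unequally by endothelial RNA. Members with at least 2 Cdh5 and Pecam1 UMIs were 12 of 169 in MI (7.10%, 3.72% to 12.1%) and 141 of 246 in sham (57.3%, 50.9% to 63.6%). Members with 0 were 152 in MI and 77 in sham, and 5 and 28 had 1. Depth moved with this split in sham: median UMIs were 3302 in the sham members with at least 2 and 1113 in those with 0, against 6542 and 7136 in MI. With each member thinned to 500 UMIs, 3.55% of MI members and 36.6% of sham members had a Cdh5 or Pecam1 UMI.

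**Figure D2:**
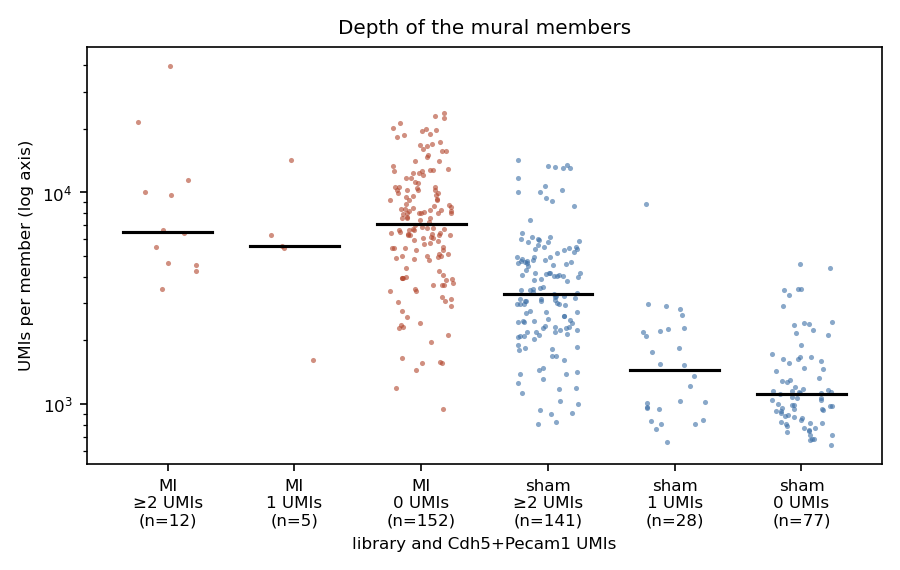
UMIs per member on a log axis by library and by Cdh5 and Pecam1 UMIs; each point is a cell barcode and the black lines are medians. MI members with 0 of these UMIs sit around a median of 7136 UMIs and sham members with 0 around 1113.

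Cells with endothelial UMIs carried further endothelial RNA beside the mural genes. Over 17 endothelial markers other than the splitting pair with at least 100 UMIs in endothelial barcodes, the members with at least 2 Cdh5 and Pecam1 UMIs had a median of 95.1% of the level in endothelial barcodes in MI and 74.7% in sham. Members with 0 had 1.48% in MI and 21.5% in sham, and lymphocyte barcodes 0.825% in MI and 9.98% in sham. Gpihbp1, which carries lipoprotein lipase on capillary endothelium, was at 933 CPM in sham members with at least 2 UMIs and 183 CPM in those with 0. Kcnj8 was at 507 CPM in sham members with at least 2 and 1938 CPM in those with 0. In MI, where 12 cells make up the group with at least 2, Igfbp3, a binding protein of insulin-like growth factors, was at 2729 CPM in them and 12.7 CPM in members with 0. Col1a2, a chain of type I collagen, was at 2346 CPM in MI members with at least 2 and 12134 CPM in those with 0. Of the 127903 UMIs of these 12 MI cells 39613 lay in 1 cell. Without the member of most UMIs in each group, the log2 ratio of Igfbp3 was 5.96 in place of 7.75 and that of Col1a2 -1.86 in place of -2.37, and 8 of 16 named genes of this split moved beyond their counting interval. Scrublet marked 1 of the 12 MI cells and 7 of the 141 sham cells. Whether such barcodes are 2 cells in 1 droplet or single cells was not tested. Because this group makes up such different parts of the libraries, the comparisons below are led by the members with 0 Cdh5 and Pecam1 UMIs, with the values over all members beside them where they differ. In this text, without endothelial UMIs means 0 UMIs of Cdh5 and Pecam1 only. These members still held 1286 CPM in MI and 7359 CPM in sham, summed over 20 endothelial markers. A count of 0 is also a weaker limit at the lower sham depth. The part of endothelial RNA in the values below was not tested.

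The genes of the rule themselves were lower in MI members without endothelial UMIs. A gene is counted as higher or lower when its CPM differed at least 2-fold by size, among genes with at least 20 UMIs in the compared sums. Kcnj8 was at 88.6 CPM in MI and 1938 CPM in sham (log2 ratio -4.45, 95% interval -4.79 to -4.11). Its channel partner Abcc9 was at 68 CPM in MI and 969 CPM in sham (log2 ratio -3.83, 95% interval -4.26 to -3.41). Both potassium channel genes thus lay more than 10-fold apart between the libraries. Vtn was at 19.8 CPM in MI and 466 CPM in sham (log2 ratio -4.56, 95% interval -5.31 to -3.84), and Rgs5 at 2577 CPM in MI and 14388 CPM in sham (log2 ratio -2.48, 95% interval -2.57 to -2.39). Notch3 was at 175 CPM in MI and 439 CPM in sham (log2 ratio -1.33, 95% interval -1.78 to -0.85). Myh11 was nearest between the libraries, at 494 CPM in MI and 841 CPM in sham (log2 ratio -0.77, 95% interval -1.08 to -0.43). Of the rule genes 5 of 6 were at least 2-fold lower in MI and 0 higher, beside 22% lower and 15.2% higher of all 7013 genes. A fixed limit of 6 UMIs takes in cells with a smaller share of these genes where cells are deeper, so these values depend on the rule. Members that passed only with their Myh11 UMIs, a larger part in MI, also enter these values and those of other pericyte genes below. Their part was not tested. A further set held members whose rule genes reached 1% of their UMIs, a limit chosen after seeing the data. Here and below this 1% set takes in members with endothelial UMIs, so its cells differ from those above. The summed level of 20 endothelial markers in it was 3083 CPM in MI and 16103 CPM in sham. Rgs5 was at 13828 CPM in its 15 MI members and 15189 CPM in its 145 sham members (log2 ratio -0.14, 95% interval -0.24 to -0.03). The limit acts on a sum that Rgs5 leads, so this closeness follows in part from the limit. In the same cells Kcnj8 was at 548 CPM in MI and 1203 CPM in sham (log2 ratio -1.13, 95% interval -1.66 to -0.65), and Abcc9 at 311 CPM in MI and 534 CPM in sham (log2 ratio -0.78, 95% interval -1.50 to -0.12).

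The split by Myh11 UMIs gave unequal parts in the libraries. Members with at least 3 Myh11 UMIs were 70 of 169 in MI (41.4%, 33.9% to 49.2%) and 39 of 246 in sham (15.9%, 11.5% to 21.0%). Members with 0 were 54 in MI and 173 in sham. At 500 UMIs per cell the share with any Myh11 UMI was 16.0% in MI and 15.4% in sham, among members still chosen at full depth. With every barcode thinned to 1000 UMIs before the rule, the share with at least 3 was 7.69% in MI and 10.4% in sham. The wide gap in the unthinned shares was not seen in either. Among members without endothelial UMIs there were 68 MI and 9 sham cells with at least 3 Myh11 UMIs, and 45 MI and 62 sham cells with 0. All 9 sham cells together held 16208 UMIs, which limits every value of that group. Of these UMIs 4606 lay in 1 cell, which held 532 of the group's 901 UMIs of the contractile genes.

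Without endothelial UMIs, the Myh11 classes lay far apart in thin filament genes. In sham, Tagln (transgelin, an actin-binding protein of smooth muscle) was at 9502 CPM with at least 3 Myh11 UMIs and 71.7 CPM with 0 (log2 ratio 7.05, 95% interval 5.89 to 8.52), and Acta2 at 7836 CPM with at least 3 and 108 CPM with 0 (log2 ratio 6.19, 95% interval 5.22 to 7.35). In MI the same classes lay closer: Tagln was at 3386 CPM with at least 3 and 1155 CPM with 0 (log2 ratio 1.55, 95% interval 1.39 to 1.72). Acta2 in MI was at 6735 CPM with at least 3 and 2286 CPM with 0 (log2 ratio 1.56, 95% interval 1.44 to 1.68). In MI, Cnn1 was at 319 CPM with at least 3 and 17.2 CPM with 0 (log2 ratio 4.21, 95% interval 2.97 to 5.85). Of the contractile list, 13 of 25 genes in MI and 14 of 14 in sham were higher with at least 3 Myh11 UMIs and 0 and 0 lower. Among all genes 6.38% were higher and 5.5% lower in MI, and 10.9% higher and 21.4% lower in sham. The list's median log2 ratio was 1.02 in MI, and over all genes it was -0.01. In sham a contractile gene reached 20 UMIs mainly through the 9 cells where it was high, so the sham count follows from that limit, and it covers fewer genes than the MI count. The cells were split on Myh11, so these are descriptions.

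Of 16 measured pericyte genes that the rule did not use, 2 were higher and 9 lower with at least 3 Myh11 UMIs in sham, with a median of -1.47 (all genes 10.9% and 21.4%). In MI 0 were higher and 4 lower of 17, with a median of -0.06 (all genes 6.38% and 5.5%). The sham cells with 0 held 83635 UMIs against 16208, so a pericyte gene reached 20 UMIs mainly through them. The sham count thus follows in part from that limit and is a description. The rule genes Kcnj8 and Abcc9 are a description here, since a member with 0 Myh11 UMIs had to reach 6 UMIs through the other rule genes. Kcnj8 was at 61.7 CPM in sham members with at least 3 Myh11 UMIs and 2415 CPM in those with 0, and Abcc9 at 61.7 CPM and 1244 CPM, where each value with at least 3 is 1 UMI. In MI, Kcnj8 was at 40.1 CPM with at least 3 and 179 CPM with 0, and Abcc9 at 46.2 and 110 CPM. Rgs5 lay within 2-fold between the classes of each library, with 2152 and 3627 CPM in MI and 12648 and 15209 CPM in sham. Olfr78 had 177 CPM with at least 3 and 44.7 CPM with 0 in MI, and 247 CPM with at least 3 and no UMI with 0 in sham.

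**Figure D3:**
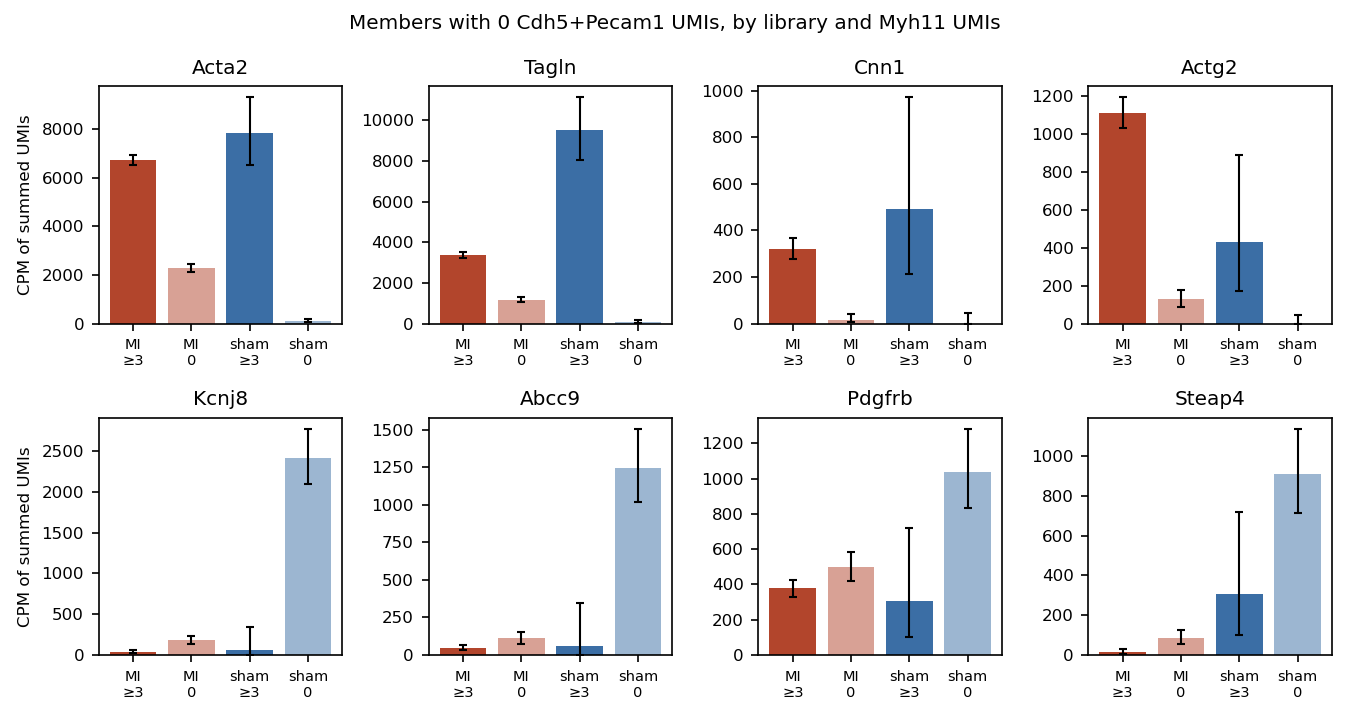
CPM of 4 contractile genes (top) and 4 pericyte genes (bottom) in members with 0 Cdh5 and Pecam1 UMIs, by library (MI red, sham blue) and Myh11 class (at least 3 UMIs dark, 0 UMIs light); bars are summed UMIs and lines exact Poisson 95% intervals. Acta2 is at 2286 CPM in MI cells with 0 Myh11 UMIs and 108 CPM in sham cells with 0, while Kcnj8 is at 179 and 2415 CPM in those cells.

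In summed UMIs, most measured contractile genes were higher in MI among cells with 0 Myh11 UMIs, and few among cells with at least 3. In members with 0 Myh11 UMIs, Acta2 was at 2286 CPM in MI and 108 CPM in sham (log2 ratio 4.41, 95% interval 3.48 to 5.54), and 95.6% of MI cells and 11.3% of sham cells had a UMI. Tagln was at 1155 CPM in MI and 71.7 CPM in sham (log2 ratio 4.01, 95% interval 2.87 to 5.47). The myosin light chain gene Myl9 was at 485 CPM in MI and 108 CPM in sham (log2 ratio 2.17, 95% interval 1.21 to 3.33), and the tropomyosin gene Tpm2 at 877 CPM in MI and 323 CPM in sham (log2 ratio 1.44, 95% interval 0.87 to 2.07). Lmod1, a leiomodin that nucleates actin filaments, was at 206 CPM in MI and 23.9 CPM in sham (log2 ratio 3.11, 95% interval 1.19 to 6.19). Of 19 contractile genes 11 were higher and 2 lower in MI, with a median of 1.29, beside 17.7% higher and 17.1% lower of all genes and a median of 0.01. Those lower in MI were Casq2, at 82.5 and 395 CPM in MI and sham, and Sncg (gamma-synuclein), at 37.8 and 167 CPM.

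In members with at least 3 Myh11 UMIs, Acta2 was at 6735 CPM in MI and 7836 CPM in sham (log2 ratio -0.22, 95% interval -0.47 to 0.05), an interval that holds 0. Tagln was at 3386 CPM in MI and 9502 CPM in sham (log2 ratio -1.49, 95% interval -1.73 to -1.24), and Mylk at 971 CPM in MI and 3147 CPM in sham (log2 ratio -1.70, 95% interval -2.11 to -1.25). Lmod1 was at 484 CPM in MI and 1666 CPM in sham (log2 ratio -1.78, 95% interval -2.35 to -1.16). Of 23 contractile genes 1 was higher and 12 lower, with a median of -1.11, beside 11.5% higher and 28.5% lower of all genes and a median of -0.39. The gene higher in MI was Actg2, enteric smooth muscle actin, at 1111 CPM in MI and 432 CPM in sham (log2 ratio 1.36, 95% interval 0.31 to 2.68). Myh11 itself was at 886 CPM in these MI cells and 5121 CPM in these sham cells. The sham values lean on the 1 cell of 4606 UMIs, which held 75 UMIs of Acta2 and 35 of Myh11. Ratios of this class without that cell were not computed, so how far they rest on it was not tested. The same limit of 3 UMIs was reached at a median depth of 7996 UMIs in MI and 1565 in sham, and the part of this in the result was not tested. The difference between the 2 classes was likewise not tested.

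**Figure D4:**
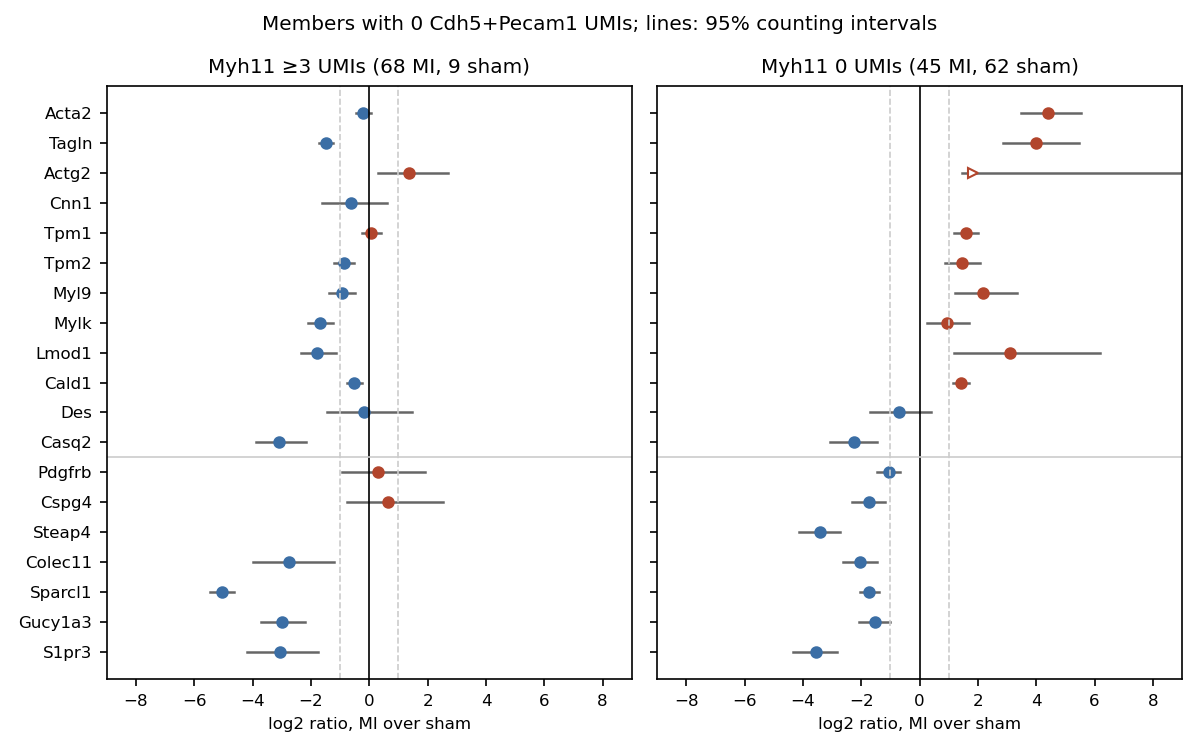
Log2 ratio of MI over sham for 12 contractile genes (above the grey line) and 7 genes of pericytes and vessel tone (below it) in members with 0 Cdh5 and Pecam1 UMIs, left with at least 3 Myh11 UMIs and right with 0. Lines are 95% counting intervals, dashed lines mark 2-fold, an open triangle is a lower bound, and a gene with under 20 UMIs is not drawn. Tagln lies at -1.49 on the left and 4.01 on the right.

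The level of contractile genes in other cells of the same library stood beside this. MI fibroblast barcodes had 1787 CPM of Acta2 and 1007 CPM of Tagln, and MI lymphocyte barcodes 544 and 216 CPM. Sham fibroblast barcodes had 6.55 and 4.05 CPM, and sham lymphocyte barcodes no UMI of either. At 500 UMIs per cell, 68.5% of all 54 MI members with 0 Myh11 UMIs and 4.05% of all 173 sham ones, cells with endothelial UMIs included, had an Acta2 or Tagln UMI, against 8.14% of MI lymphocyte barcodes. The 45 MI members with 0 Myh11 and 0 endothelial UMIs, at 2286 CPM of Acta2, thus lay above the lymphocyte barcodes and within 2-fold of the fibroblast barcodes of the same library. Pdgfrb, the receptor of mural cells, was at 499 CPM in the MI members with 0 Myh11 UMIs and 122 CPM in MI fibroblast barcodes, and Higd1b at 120.3 and 0.313 CPM.

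Over all Myh11 classes, members without endothelial UMIs had Acta2 at 5204 CPM in MI and 1279.8 CPM in sham (log2 ratio 2.02, 95% interval 1.78 to 2.28) and Actg2 at 706 CPM in MI and 64 CPM in sham (log2 ratio 3.46, 95% interval 2.41 to 4.78). Tpm1 was at 4056 CPM in MI and 1389 CPM in sham, and the filamin gene Flna at 488 and 183 CPM. Of 25 contractile genes 8 were higher and 4 lower, with a median of 0.31, beside 15.2% higher and 22% lower of all genes. Over all members the counts were 12 and 4 of 28 with a median of 0.65, beside 13% higher (1207) and 22.1% lower (2051) of all 9263 genes. With median-of-ratios scaling these were 1571 higher and 1617 lower. The median over all genes was -0.14 without endothelial UMIs and -0.21 over all members, so a scaling to the median gene would shift every value up by these amounts. Without endothelial UMIs, the genes lower in MI were Casq2, at 112 and 448 CPM, Sncg, at 22.1 and 210.2 CPM, Sorbs2, at 75.9 and 210.2 CPM, and Itga8, at 72 and 155 CPM. Of 13 transcription factors of the smooth muscle programme 1 was higher and 6 were lower in the same members (all genes 15.2% and 22%). Over all members it was 1 and 4 of 13 (all genes 13% and 22.1%). The higher one was Srf (serum response factor), at 37.2 CPM in MI and 9.14 CPM in sham, which was 47 UMIs and 1 UMI. Its coactivator Myocd had 8 UMIs in MI and 0 in sham. Among the lower ones, Klf4, a factor that represses contractile genes, was at 69.6 CPM in MI and 311 CPM in sham (log2 ratio -2.16, 95% interval -2.75 to -1.54) and Tbx2 at 15.8 and 128 CPM.

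Other pericyte genes, which the rule did not use, were lower in the MI cells. Of 20 genes 16 were lower and 0 higher without endothelial UMIs, with a median of -1.93, beside 22% lower and 15.2% higher of all genes. Steap4, a metalloreductase, was at 45.1 CPM in MI and 804 CPM in sham (log2 ratio -4.16, 95% interval -4.66 to -3.66), and was seen in 18.4% and 59.7% of cells. The chloride channel gene Ano1 was at 19 CPM in MI and 475 CPM in sham (log2 ratio -4.65, 95% interval -5.41 to -3.92). Art3, an ADP-ribosyltransferase, was at 38 CPM in MI and 494 CPM in sham (log2 ratio -3.70, 95% interval -4.29 to -3.11). The collectin gene Colec11 was at 86.2 CPM in MI and 631 CPM in sham (log2 ratio -2.87, 95% interval -3.32 to -2.42) and Cox4i2 at 41.1 CPM in MI and 375 CPM in sham (log2 ratio -3.19, 95% interval -3.81 to -2.56). Pdgfrb was closer, at 437 CPM in MI and 923 CPM in sham (log2 ratio -1.08, 95% interval -1.39 to -0.76), and Cspg4 was at 340.1 and 539 CPM (log2 ratio -0.67, 95% interval -1.06 to -0.25). Mcam, an adhesion molecule of vessel walls, was at 317 CPM in MI and 210.2 CPM in sham, and Mfge8 at 611 and 539 CPM. Over all members 10 of 20 were lower and 0 higher (all genes 22.1% and 13%), with a median of -1.14, and Pdgfrb was at 415 and 386 CPM.

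These values too lay closer between the libraries when members were chosen by the share of the rule genes. With at least 0.5% of UMIs from the rule genes and no endothelial UMIs, 47 MI and 76 sham members were left, at median depths of 4888 and 1097 UMIs. Of 18 pericyte genes 10 were lower and 0 higher there, with a median of -1.10, beside 17% lower and 16.4% higher of all 3304 genes. Steap4 was at 120.1 CPM in MI and 813 CPM in sham (log2 ratio -2.76, 95% interval -3.39 to -2.16), Ano1 at 71.3 and 477 CPM, and Higd1b at 319 and 383 CPM. With at least 1%, members with endothelial UMIs included, 7 of 19 were lower and 1 higher, with a median of -0.34. Of all genes there 25.9% were lower and 9.81% higher, with a median of -0.30, near that of the list. The contractile list was at 8 higher and 4 lower of 22 with 0.5%, and Acta2 was at 5147 CPM in MI and 1309 CPM in sham (log2 ratio 1.98, 95% interval 1.72 to 2.24).

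Matrix genes were higher in the MI members, in most measured genes of their lists. Of 20 fibrillar collagen and crosslinking genes 16 were higher and 1 lower without endothelial UMIs, with a median log2 ratio of 2.26. Of all genes 15.2% were higher and 22% lower there. Col1a1 was at 3489 CPM in MI and 201 CPM in sham (log2 ratio 4.12, 95% interval 3.52 to 4.79), with a UMI in 94.1% and 11.7% of cells. Col1a2 was at 12134 CPM in MI and 1408 CPM in sham (log2 ratio 3.11, 95% interval 2.88 to 3.35). The collagen crosslinking enzyme gene Lox was at 399 CPM in MI with no UMI in sham (log2 ratio at least 3.86), and Col8a1, a network collagen of vessels, at 1017 and 82.3 CPM (log2 ratio 3.63, 95% interval 2.70 to 4.76). The lower gene was Col6a2, at 71.2 CPM in MI and 229 CPM in sham (log2 ratio -1.68, 95% interval -2.33 to -0.98). Over all members 18 of 20 were higher and 0 lower (all genes 13% and 22.1%). By Myh11 class without endothelial UMIs, 11 of 15 were higher and 0 lower with at least 3 UMIs (all genes 11.5% and 28.5%). With 0 it was 15 higher and 1 lower of 19 (all genes 17.7% and 17.1%). Among members with at least 1% of UMIs from the rule genes 12 of 13 were higher and 0 lower (all genes 9.81% and 25.9%).

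Of 17 injury matrix genes 14 were higher and 0 lower without endothelial UMIs, with a median of 2.11 (all genes 15.2% and 22%). Over all members 15 of 18 were higher and 0 lower (all genes 13% and 22.1%). Thbs1 (thrombospondin, an activator of latent TGF-beta) was at 911 CPM in MI and 9.14 CPM in sham (log2 ratio 6.64, 95% interval 4.16 to 11.94). Timp1, an inhibitor of matrix metalloproteinases, was at 459 CPM in MI and 9.14 CPM in sham (log2 ratio 5.65, 95% interval 3.17 to 10.96). Cthrc1, a secreted protein of injured vessels and scars, was at 243 CPM in MI and had no UMI in sham. Postn (periostin) was at 2369.6 and 439 CPM and Fn1 (fibronectin) at 1381 and 210.2 CPM in MI and sham. The small S100 gene S100a6 was at 4674 CPM in MI and 375 CPM in sham (log2 ratio 3.64, 95% interval 3.20 to 4.12) and the galectin gene Lgals1 at 6977 CPM in MI and 814 CPM in sham (log2 ratio 3.10, 95% interval 2.80 to 3.42).

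Within the MI members with 0 Cdh5 and Pecam1 UMIs, Col1a1 lay close between the Myh11 classes. Col1a1 was at 3665 CPM with at least 3 Myh11 UMIs and 3748 CPM with 0. Of 20 genes of the fibrillar collagen and crosslinking list 1 was higher and 0 lower with at least 3, near the 6.38% and 5.5% of all genes. In contrast, Ankrd1, a stretch-responsive cofactor, was at 803 CPM with at least 3 and 86 CPM with 0 (log2 ratio 3.22, 95% interval 2.65 to 3.87). Mgp, matrix Gla protein, an inhibitor of calcification, was lower with at least 3, at 2115 CPM, against 10211 CPM with 0 (log2 ratio -2.27, 95% interval -2.37 to -2.18).

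RNA of fibroblasts and the background in lymphocyte barcodes stood beside the matrix values. MI fibroblast barcodes had 7859.6 CPM of Col1a1 and 26615 CPM of Col1a2, and MI lymphocyte barcodes 806 and 2772 CPM. Sham fibroblast barcodes had 654 and 4882 CPM, and sham lymphocyte barcodes 23.1 and 46.3 CPM. The fibroblast marker Pdgfra was at 17.4 CPM in MI and 18.3 CPM in sham members, against 81 and 463 CPM in fibroblast barcodes. Of the 15 fibroblast markers 5 were higher and 7 lower in MI members without endothelial UMIs (all genes 15.2% and 22%). Their summed level was 22860.4 CPM in MI and 8346 CPM in sham. The higher ones were the collagens Col1a1, Col1a2 and Col3a1 with Cthrc1 and Postn, which other lists also hold. Dcn (decorin) was lower, at 277 CPM in MI and 1709 CPM in sham, as was Gsn (gelsolin), at 172 and 2285 CPM. Ankrd1 was at 596 CPM in MI lymphocyte barcodes, above the 506 CPM of the MI members without endothelial UMIs over all Myh11 classes. Leaving out members with at least 2 UMIs of Pdgfra, Lum and Dpt gave 1171 genes higher and 1978 lower in MI over all members, against 1207 and 2051 with them. The part of background RNA in the matrix values was not tested.

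Among basement membrane genes, which build the layer that pericytes share with endothelium, 6 of 19 were higher and 5 lower without endothelial UMIs (all genes 15.2% and 22%). Over all members 8 of 19 were higher and 1 lower (all genes 13% and 22.1%). The type IV collagen chains Col4a1, at 2072 CPM in MI and 603 CPM in sham (log2 ratio 1.78, 95% interval 1.43 to 2.15), and Col4a2, at 1298 and 356 CPM, were higher. Sparc, which binds collagen, was at 10308 CPM in MI and 3867 CPM in sham (log2 ratio 1.42, 95% interval 1.27 to 1.56). The laminin chains Lama2, at 54.6 and 165 CPM in MI and sham, Lamb2, at 64.1 and 146 CPM, and Lamc1, at 95.7 and 201 CPM, were lower.

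In TGF-beta and BMP signalling 6 of 19 genes were higher and 6 lower without endothelial UMIs, beside 15.2% higher and 22% lower of all genes. Over all members 6 of 23 were higher and 8 lower (all genes 13% and 22.1%). The ligand gene Tgfb2 was at 435 CPM in MI and 36.6 CPM in sham (log2 ratio 3.57, 95% interval 2.21 to 5.45), and Tgfb3 at 249 CPM in MI and 64 CPM in sham (log2 ratio 1.96, 95% interval 0.90 to 3.29). Tgfb2 in MI fibroblast barcodes was at 95.9 CPM and in MI lymphocyte barcodes at 32.8 CPM. Among receptors, Tgfbr3 (betaglycan) was at 6.33 CPM in MI and 128 CPM in sham (log2 ratio -4.34, 95% interval -5.80 to -2.98), while Tgfbr1 was at 25.3 and 27.4 CPM (log2 ratio -0.12, 95% interval -1.79 to 2.24). Ctgf, a target gene, was at 878 CPM in MI and 283 CPM in sham (log2 ratio 1.63, 95% interval 1.12 to 2.20). Of the BMP targets, Id1 was at 79.9 CPM in MI and 302 CPM in sham (log2 ratio -1.92, 95% interval -2.50 to -1.30) and Id3 at 1765 and 749.6 CPM (log2 ratio 1.24, 95% interval 0.92 to 1.57).

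In PDGF, angiopoietin and S1P signalling 2 of 7 measured genes were higher and 1 lower without endothelial UMIs (all genes 15.2% and 22%). Pdgfa was at 384 CPM in MI and 119 CPM in sham (log2 ratio 1.69, 95% interval 0.90 to 2.61) and Angpt2, the antagonist of angiopoietin 1, at 59.3 and 27.4 CPM (log2 ratio 1.11, 95% interval -0.49 to 3.42). S1pr3, a sphingosine phosphate receptor of mural cells, was at 64.1 CPM in MI and 759 CPM in sham (log2 ratio -3.57, 95% interval -4.03 to -3.11). Over all members 2 of 14 were higher and 7 lower (all genes 13% and 22.1%). Among the lower ones were the endothelial receptor genes Tek, at 5.61 and 171 CPM in MI and sham, and Tie1, at 16.1 and 197 CPM. In the Notch pathway 1 of 8 genes was higher and 2 lower without endothelial UMIs, near the 15.2% and 22% of all genes. Over all members it was 0 higher and 6 lower of 13 (all genes 13% and 22.1%). The Notch target Heyl was at 79.9 CPM in MI and 155 CPM in sham (log2 ratio -0.96, 95% interval -1.71 to -0.12), and the ligand Jag1 at 94.1 and 128 CPM (log2 ratio -0.44, 95% interval -1.25 to 0.47).

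Of 12 genes of vessel tone 2 were higher and 6 lower in MI without endothelial UMIs, with a median of -0.90, beside 15.2% higher and 22% lower of all genes. Over all members 3 were higher and 7 lower of 15 (all genes 13% and 22.1%). With at least 1% of UMIs from the rule genes 0 were higher and 1 lower of 8, a smaller share lower than the 25.9% of all genes. Both subunits of the nitric oxide receptor, soluble guanylate cyclase, were among the lower genes without endothelial UMIs. Gucy1a3 was at 171 CPM in MI and 704 CPM in sham (log2 ratio -2.04, 95% interval -2.42 to -1.65) and Gucy1b3 at 145 CPM in MI and 639.9 CPM in sham (log2 ratio -2.14, 95% interval -2.55 to -1.73). The endothelin receptor gene Ednra was at 46.7 CPM in MI and 274 CPM in sham (log2 ratio -2.56, 95% interval -3.21 to -1.87) and Ednrb at 56.2 and 319.9 CPM (log2 ratio -2.51, 95% interval -3.11 to -1.88). The cGMP kinase gene Prkg1 was at 63.3 and 54.9 CPM (log2 ratio 0.21, 95% interval -0.98 to 1.70). Those higher in MI were Trpc6, a calcium-permeable channel, at 27.7 and 9.14 CPM, and Kcnmb1, a subunit of the large calcium-activated potassium channel, at 53 and 18.3 CPM, with 1 and 2 UMIs behind the sham values.

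Interferon response genes were at least 2-fold lower in MI in 13 of 16 without endothelial UMIs and in 18 of 20 over all members, with 0 and 0 higher, beside 22% and 22.1% lower of all genes. By Myh11 class without endothelial UMIs the count was 2 higher and 2 lower of 6 with at least 3 UMIs (all genes 11.5% and 28.5%). With 0 it was 0 higher and 4 lower of 9 (all genes 17.7% and 17.1%). H2-D1, a class I histocompatibility gene, was at 205 CPM in MI and 777 CPM in sham (log2 ratio -1.92, 95% interval -2.28 to -1.55), the GTPase gene Iigp1 at 16.6 and 155 CPM (log2 ratio -3.23, 95% interval -4.22 to -2.21) and Gbp7 at 55.4 and 329 CPM (log2 ratio -2.57, 95% interval -3.17 to -1.95). Endothelial marker RNA, at a median of 1.48% of the endothelial level in these MI members and 21.5% in these sham members, moved with the interferon genes, and its part was not tested. Of 12 chemokine, cytokine and adhesion genes 3 were higher and 3 lower without endothelial UMIs, near the 15.2% and 22% of all genes. Over all members 4 were higher and 7 lower of 15 (all genes 13% and 22.1%). Ccl2, which draws monocytes, was at 121 CPM in MI and 27.4 CPM in sham (log2 ratio 2.14, 95% interval 0.57 to 4.43), and Cxcl12 at 64.1 CPM in MI and 558 CPM in sham (log2 ratio -3.12, 95% interval -3.62 to -2.62). Il6 was at 30.1 CPM in MI with no UMI in sham.

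Cell cycle genes were higher in MI in 12 of 17 genes without endothelial UMIs, with 0 lower (all genes 15.2% and 22%). Over all members it was 14 of 18 with 0 lower (all genes 13% and 22.1%). With at least 3 Myh11 UMIs and no endothelial UMIs 1 of 5 was higher and 0 lower (all genes 11.5% and 28.5%). There 17 of the 18 listed genes had no UMI in the 9 sham cells. Most of these ratios are thus bounds set by the floor, which limits this count. The summed level of the list there was 2483 CPM in MI and 61.7 CPM in sham, the latter from 1 UMI. With at least 1% of UMIs from the rule genes 2 of 5 were higher and 1 lower (all genes 9.81% and 25.9%). Birc5 (survivin) was at 171 CPM in MI with no UMI in sham (log2 ratio at least 2.64), and Ccnb2 at 136 and 45.7 CPM (log2 ratio 1.57, 95% interval 0.32 to 3.21). Mki67 was at 457 CPM in MI and 210.2 CPM in sham (log2 ratio 1.12, 95% interval 0.52 to 1.79), and lymphocyte barcodes had 295 and 231 CPM of it. Without endothelial UMIs, mitochondrially encoded genes were lower in 8 of 13 and higher in 0 (all genes 22% and 15.2%). Of 19 nuclear respiratory chain genes 0 were higher and 0 lower. Over all members it was 6 of 13 lower (all genes 22.1%), and 0 and 0 of 19. Glycolysis and hypoxia genes were higher in 4 and lower in 1 of 13 (all genes 15.2% and 22%), and in 5 and 4 of 17 over all members (13% and 22.1%). With at least 1% of UMIs from the rule genes it was 0 and 2 of 8 (9.81% and 25.9%). Without endothelial UMIs, Hif1a was at 126 CPM in MI and 18.3 CPM in sham (log2 ratio 2.78, 95% interval 0.91 to 5.84). Immediate early genes, which respond to cell handling, were higher in 1 and lower in 3 of 19 without endothelial UMIs (all genes 15.2% and 22%), and higher in 0 and lower in 9 of 19 over all members (all genes 13% and 22.1%). Lipid genes were higher in 1 and lower in 3 of 10 without endothelial UMIs (all genes 15.2% and 22%). They were higher in 0 and lower in 5 of 12 over all members (all genes 13% and 22.1%).

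**Figure D5:**
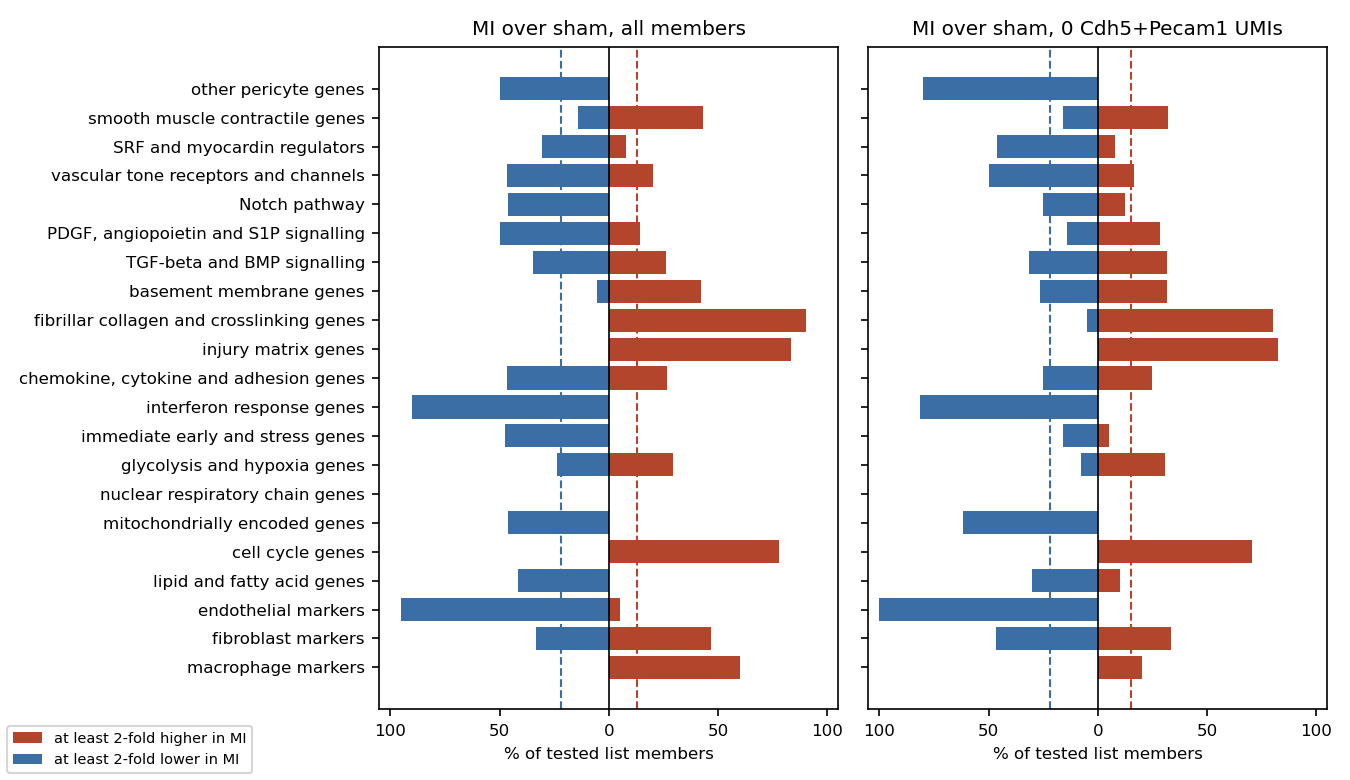
Percent of the measured genes of each list at least 2-fold higher (red, to the right) or lower (blue, to the left) in MI over sham, for all members on the left and members with 0 Cdh5 and Pecam1 UMIs on the right; dashed lines give the same percent over all genes. The 2 matrix lists reach 16 of 20 and 14 of 17 higher on the right, where 16 of 20 pericyte genes are lower.

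The genes that led the difference without regard to lists included, on the lower side, many of endothelium. Over all members the lowest were Clic5, C1qtnf9, Car4, Cxcl9, Cd36, Rbp7, Tspan13, Gbp4, Aqp7, Gbp9, Timp4 and Cyp4b1, and Cd36, a fatty acid carrier of capillary endothelium, was at 54 CPM in MI and 2658 CPM in sham. Without endothelial UMIs, Cd36 was at 5.54 CPM in MI and 1024 CPM in sham, against 19.7 and 486 CPM in lymphocyte barcodes. Of 12 measured endothelial markers 12 were still lower there and 0 higher (all genes 22% and 15.2%). The summed level of the list was 1286 CPM in MI and 7359 CPM in sham. Palmd, Abca8a, Ly6c1, Mgll, Tspan13, Ly6a, Gvin1, Pcp4l1 and C3 joined Cd36, Ano1 and Steap4 as the lowest genes without endothelial UMIs, and the part of endothelial RNA in these was not tested. On the higher side Hs6st2, at 173 and 1.35 CPM over all MI and sham members, and Plac8, at 148 and 1.35 CPM, stood beside the matrix genes named above.

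Markers of further cell types were low. The summed level of 12 macrophage markers was 152 CPM in MI and 165 CPM in sham members without endothelial UMIs, of 10 lymphocyte markers 4.75 and 9.14 CPM, of 7 mesothelial markers 34 and 229 CPM, of 7 Schwann cell markers 3.96 and 27.4 CPM and of 5 erythrocyte markers 19.8 and 128 CPM. Among 12 cardiomyocyte markers, at 218 and 73.1 CPM, Myh6, Tnni3, Myl3 and Ckm had no UMI in either library, and Tnnt2 was at 191 CPM in MI and 9.14 CPM in sham.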

How the data were processed

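Drop-seq libraries of 1 MI heart and of 4 pooled sham hearts were given as tables of raw UMI counts per gene and barcode, as deposited by the authors. The submitters' processing notes name Seurat and mm10; no aligner or counting tool is named in the sources used here. Per the labels' protocols, cDNA was amplified in 12 cycles. The tables shared 21745 genes. Every barcode in the tables with at most 25% mitochondrial UMIs was used, doublets included. The members, gene lists and comparisons were chosen with earlier results of these data known.

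UMIs were summed over the cells of a group. CPM have exact Poisson 95% intervals, ratios exact conditional binomial intervals, and shares of cells exact Clopper-Pearson intervals. A sum of 0 was set to a floor of 3 counts over the group, and the ratio is then a bound. With 1 library per group no test was made. A gene was compared at 20 or more UMIs in both sums together, and called at a fold of 2. For shares of cells at equal depth, each cell was thinned to 500 UMIs. Among barcodes that were no members and had at most 2 C1q UMIs, endothelial barcodes had at least 4 UMIs of Cdh5, Pecam1 and Kdr, fibroblast barcodes at least 4 of Pdgfra, Lum, Dpt and Dcn, and lymphocyte barcodes at least 3 of Cd3d, Cd3e, Cd3g, Cd79a, Cd79b and Ms4a1, each from at least 2 of these genes and with at most 1 UMI of the other kinds' leading genes.

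Named genes reached 30 UMIs, were seen in 10% of the cells of a group or more, and were ranked by the interval bound nearest 0: the 12 highest and 12 lowest between MI and sham, 8 each in a split, 15 against other barcodes, and for each list the 3 with the bound farthest from 0. Rule genes and any measured pericyte, contractile, tone, Notch and PDGF genes were also eligible; any gene named outside these ranks was chosen after its values were seen. The steps were tested on simulated counts. Python 3.11.15, numpy 2.4.6, scipy 1.17.1, pandas 2.3.3, scanpy 1.11.5 and matplotlib 3.10.9 were used.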

Additional observations from a re-analysis of the deposited data

Results flagged for a closer look

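The Myh11 split ran in opposite directions in the libraries for 7 genes, each at least 2-fold. These ratios are over all members, and the differences were not tested. Igfbp3 had a log2 ratio of -6.65 in MI, at 7.47 CPM with at least 3 Myh11 UMIs and 748 CPM with 0, and of 1.68 in sham, at 229.7 and 71.96 CPM. In MI, 349 Igfbp3 UMIs lay in the 12 members with at least 2 Cdh5 and Pecam1 UMIs, and 16 in the 152 members with 0. Without the member of most UMIs in each group the MI log2 ratio of Igfbp3 was -2.37. The MI log2 ratio was -3.17 for Clu (sham 4.35), -1.08 for Igfbp5 (sham 1.55), -1.78 for Syn3 (sham 1.16) and -1.12 for Timp3 (sham 1.27). It was 1.01 for Fabp5 (sham -1.67) and 1.79 for Ptn, which had no UMI in sham members with at least 3 Myh11 UMIs (sham -1.27 or lower). The members with at least 2 Cdh5 and Pecam1 UMIs included 0 MI and 26 sham cells with at least 3 Myh11 UMIs, and the part of endothelial RNA in these ratios was not tested.

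Among members with 0 Cdh5 and Pecam1 UMIs, the ratio of MI over sham was on opposite sides in the 2 Myh11 classes for 5 genes, and the difference was not tested. With at least 3 Myh11 UMIs the log2 ratio was -1.49 for Tagln, -1.78 for Lmod1, -2.63 for Mustn1, -2.05 for Palld, an actin-bundling protein, and -1.05 for Dstn, an actin-depolymerizing factor. With 0 Myh11 UMIs it was 4.01 for Tagln, 3.11 for Lmod1, 2.16 for Mustn1, at least 1.01 for Palld and 1.07 for Dstn. Dstn was at 1404 CPM in MI and 2899.8 CPM in sham with at least 3, and at 701 CPM in MI and 335 CPM in sham with 0. The sham class with at least 3 was 9 cells, and 1 of them held 532 of its 901 UMIs of the contractile list.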

How the results depend on the processing

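No paired analysis was possible because each group was 1 library. Over alternatives of the UMI limits, doublets, barcodes ending in N, scaling, averaging per cell, depth and low-count filter, 96 values of the main results stayed near the reported value and 28 moved; for list medians it was 296, 63 moved and 1 reversed, and for named genes 1415, 446 moved and 3 reversed. Unless said otherwise the cause was not tested. With every barcode thinned to 1000 UMIs before the rule, the log2 ratio of mural shares was -2.56, the share with Myh11 was 7.69% in MI and 10.4% in sham, and the share with endothelial UMIs 2.56% in MI and 26.4% in sham. Genes higher in MI over all members numbered 221 and lower 467, genes that differed by Myh11 72 in MI and 268 in sham, and by Cdh5 and Pecam1 132 in sham, all with fewer UMIs to compare. Actg2 then had a Myh11 log2 ratio of -0.45 in MI and Epas1 an MI over sham log2 ratio of 0.10, both reversed. At most 10% mitochondrial UMIs gave a share ratio of -0.64. With no filter on low counts, 3238 genes were lower in MI, 2673 differed by Cdh5 and Pecam1 in sham, and 2567 in MI and 2656 in sham by Myh11. With at least 50 UMIs these were 778 higher and 1129 lower in MI, 1022 in MI and 500 in sham by Cdh5 and Pecam1, and 263 in MI and 366 in sham by Myh11. Limits on the share of rule genes were chosen after seeing the data. At 0.5%, 670 genes were higher in MI, 576 differed in MI by Cdh5 and Pecam1 and 274 by Myh11. At 0.5% without endothelial UMIs, 541 were higher and 561 lower, and the PDGF, angiopoietin and S1P median was 0.65, reversed. At 1%, 374 were higher and 986 lower, and Ube2c was at -0.024, reversed. The counts over all members were 1207 higher and 2051 lower in MI, 2156 in MI and 1368 in sham by Cdh5 and Pecam1, and 860 in MI and 1142 in sham by Myh11. The 9 sham cells with at least 3 Myh11 and no endothelial UMIs, 16208 UMIs in all, limit every value of that class.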
